A study of Homo sapiens with 17 samples.

Results

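Box C/D small nucleolar RNAs (snoRNAs) were taken here as every gene of the array whose probe set carries a single symbol made of SNORD and a digit in the platform annotation. Of the 18377 genes with a single symbol, these were 73 that passed a filter on low signal on the siRNA arrays and 42 that did not, each with 1 probe set. A further 49 probe sets carry a SNORD symbol among several symbols and were not named. RNA was measured on 17 arrays from NKYS, an established cell line of human NK/T-cell lymphoma grown with 10% serum and 100 IU/mL of interleukin-2, which all groups share. All cells were transfected by electroporation. Of the 8 siRNA arrays, 2 came from cells given an siRNA against JAK3, the kinase that relays signals of the interleukin-2 receptor, and 2 from their control siRNA. The other siRNA arrays were 2 of an siRNA against EZH2, the methyltransferase subunit of Polycomb repressive complex 2, and 2 of a control siRNA that the titles pair with them. The 9 plasmid arrays were 2 of an empty vector, 6 of full-length EZH2 and 1 of EZH2 without its SET domain, the catalytic domain. The 6 were titled Y244D, Y244A and WT, each present in set 1 and in set 2. On the 3 full-length EZH2 arrays of set 2 the transfection field does not match the title, so that alleles were not compared there and names follow the titles. One of the WT titles carries no set number and was read as set 2, and the SET deletion array belongs to no set. Separate cultures are not stated for the arrays of any group, and a p-value here reflects only how far these arrays differ, which may be technical.

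Box C/D snoRNAs are short nuclear RNAs named after a pair of sequence boxes, and most pair with ribosomal RNA to guide 2′-O-methylation by fibrillarin. A few, such as U13 (SNORD13) and U14 (SNORD14), act in the processing or acetylation of 18S ribosomal RNA, and the SNORD115 and SNORD116 families have no known ribosomal RNA target. In human cells most are not transcribed on their own but are trimmed out of introns of host genes, many of which encode ribosomal proteins or translation factors or are non-coding small nucleolar RNA host genes (SNHG). Many such hosts begin with a run of pyrimidines at the transcription start.

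In the RefSeq table of GRCh38.p14 all of these genes but 2, SNORD13 and SNORD32B, lie within another gene. There are 44 such genes, called spanning genes here. The table gives no strand. The members measure 60 to 205 nucleotides, with a median of 81. GAS5 spans 7, other SNHG genes 11, ribosomal protein genes 21, other protein-coding genes 27 and the non-coding ZFAS1 gene 1. The imprinted clusters hold 6 of the SNORD113 and SNORD114 families and 40 of the SNORD115 and SNORD116 families. The snoRNA sequences are not given in the tables used here. The starts of 7 spanning genes are shown, the 3 that hold SNORD37, SNORD83A and SNORD77, the marker genes of the class, and 4 others whose members recur in the results, picked with the values known. Each line gives 35 bases before and 15 from the annotated start, 5′ to 3′ on the gene's strand, from RefSeq GRCh38.p14. Capitals mark the run of C or T that begins at the start.
EEF2 (spans SNORD37), chr19:3985449-3985498, minus strand: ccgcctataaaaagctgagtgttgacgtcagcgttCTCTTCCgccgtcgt
RPL3 (spans SNORD43, SNORD83A and SNORD83B), chr22:39319609-39319658, minus strand: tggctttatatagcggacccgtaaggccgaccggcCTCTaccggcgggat
GAS5 (spans SNORD44, SNORD74, SNORD75, SNORD77, SNORD78, SNORD79 and SNORD81), chr1:173869031-173869080, minus strand: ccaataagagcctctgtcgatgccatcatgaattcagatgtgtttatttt
TNPO2 (spans SNORD41), chr19:12723918-12723967, minus strand: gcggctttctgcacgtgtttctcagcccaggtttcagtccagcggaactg
HSPA9 (spans SNORD63), chr5:138575387-138575436, minus strand: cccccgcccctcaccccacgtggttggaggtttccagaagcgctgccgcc
SNHG14 (spans 39 of the SNORD115 and SNORD116 genes), chr15:24823573-24823622, plus strand: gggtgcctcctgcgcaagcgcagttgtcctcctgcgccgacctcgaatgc
RABGGTB (spans SNORD45A, SNORD45B and SNORD45C), chr1:75786221-75786270, plus strand: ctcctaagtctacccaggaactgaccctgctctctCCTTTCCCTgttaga
A run of at least 5 C or T from the annotated start, on the gene's own strand, was found in 12 of the 36 spanning genes with such a window, or 33.3%. The share was 5.17% over the windows of all 35116 genes in the table. Of the windows shown, EEF2, RPL3 and RABGGTB begin with a run of at least 4, and GAS5, TNPO2, HSPA9 and SNHG14 begin with no C or T. These matches describe the windows, and no match says only that the letters are absent at this annotated start.

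Signals are linear intensities as deposited, and differences are on the log2 scale. The targeted genes were read first. JAK3 read 138.1 and 136.7 with its siRNA against 322.5 and 326.3 in the control (log2 difference -1.24, SE 0.069, adjusted p = 5.7e-06, limma). EZH2 read 500.9 and 488.7 with its siRNA against 926.3 and 690.8 in the paired controls (log2 difference -0.69, SE 0.088, adjusted p = 0.028, limma). With vector EZH2 read 258.8 and 349.5, and with the 7 EZH2 plasmids 802.5 to 2221. Of the NK cell markers 6 of 7 passed the filter on low signal, among them GZMB (1069 to 5473 over the 17 arrays) and PRF1 (1641 to 3633). The filter did not set NK cell markers apart, since 3 of 5 T cell, 2 of 3 B cell, 2 of 4 monocyte and 3 of 4 epithelial and fibroblast markers also passed, such as CD4 (210.4 to 420.4) and CSF1R (98.2 to 240.4). The NK cell marker FCER1G (30.7 to 39.1) did not pass, nor did CD3D, CD3G, MS4A1, LYZ, CD163 and EPCAM.

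Genes were tested where their mean log2 signal reached the 30th percentile of all probe sets in the fit. That floor was a signal of 36.66 for the siRNA fit and 40.87 for the plasmid fit. On the siRNA arrays 73 members passed and 42 did not. Those left out were all 6 members of the SNORD113 and SNORD114 families, all 20 of SNORD115, 13 of the 20 of SNORD116, and SNORD13P1, SNORD20 and SNORD56B. Signals of SNORD113 and SNORD114 stayed between 21.0 and 30.3 on all 17 arrays and those of SNORD115 between 19.9 and 43.3. On the plasmid arrays 69 passed; SNORD13P2, SNORD1B, SNORD7 and SNORD96B passed on the siRNA arrays only. Copies within the SNORD115, SNORD116 and SNORD13 families may resemble each other in sequence, which was not compared here. A signal may therefore come from more than 1 copy and is uncertain for any single one. The copies did not read alike, since SNORD116 signals ran from 20.1 to 2868 over the arrays.

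SNORD37, which guides methylation of 28S ribosomal RNA, read 190.2 and 194.1 with JAK3 siRNA against 188.1 and 171.1 in the control. In the EZH2 pairs it read 210.4 against 172.8 and 220.9 against 300.6. Both JAK3 siRNA arrays lay above both controls, and in the EZH2 arm the control of pair 1 was the lowest array and the control of pair 2 the highest. On the plasmid arrays SNORD37 read 243.4 and 293.9 with vector and 116.5 to 373.5 with full-length EZH2, the 2 ends being the Y244D and WT arrays of set 1.

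SNORD83A, within RPL3, read 95.65 on both JAK3 siRNA arrays against 89.65 and 89.40 in the control. In the EZH2 pairs it read 92.31 against 95.96 and 108.2 against 121.0, so that both siRNA arrays lay below their own control and the groups overlapped. With vector it read 74.59 and 91.74. The full-length EZH2 arrays spanned 73.52 to 145.7, with WT of set 1 the highest and Y244D of set 1 the lowest.

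SNORD77, 1 of the 7 members counted here within the growth arrest transcript GAS5, read 127.3 and 101.0 with JAK3 siRNA against 149.3 and 129.7 in the control. In the EZH2 pairs it read 100.7 against 126.8 and 112.7 against 162.0. Both siRNAs therefore lay below every control array of their own arm. With vector it read 59.26 and 72.93, and with full-length EZH2 53.91 to 108.2.

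**Figure D1:**
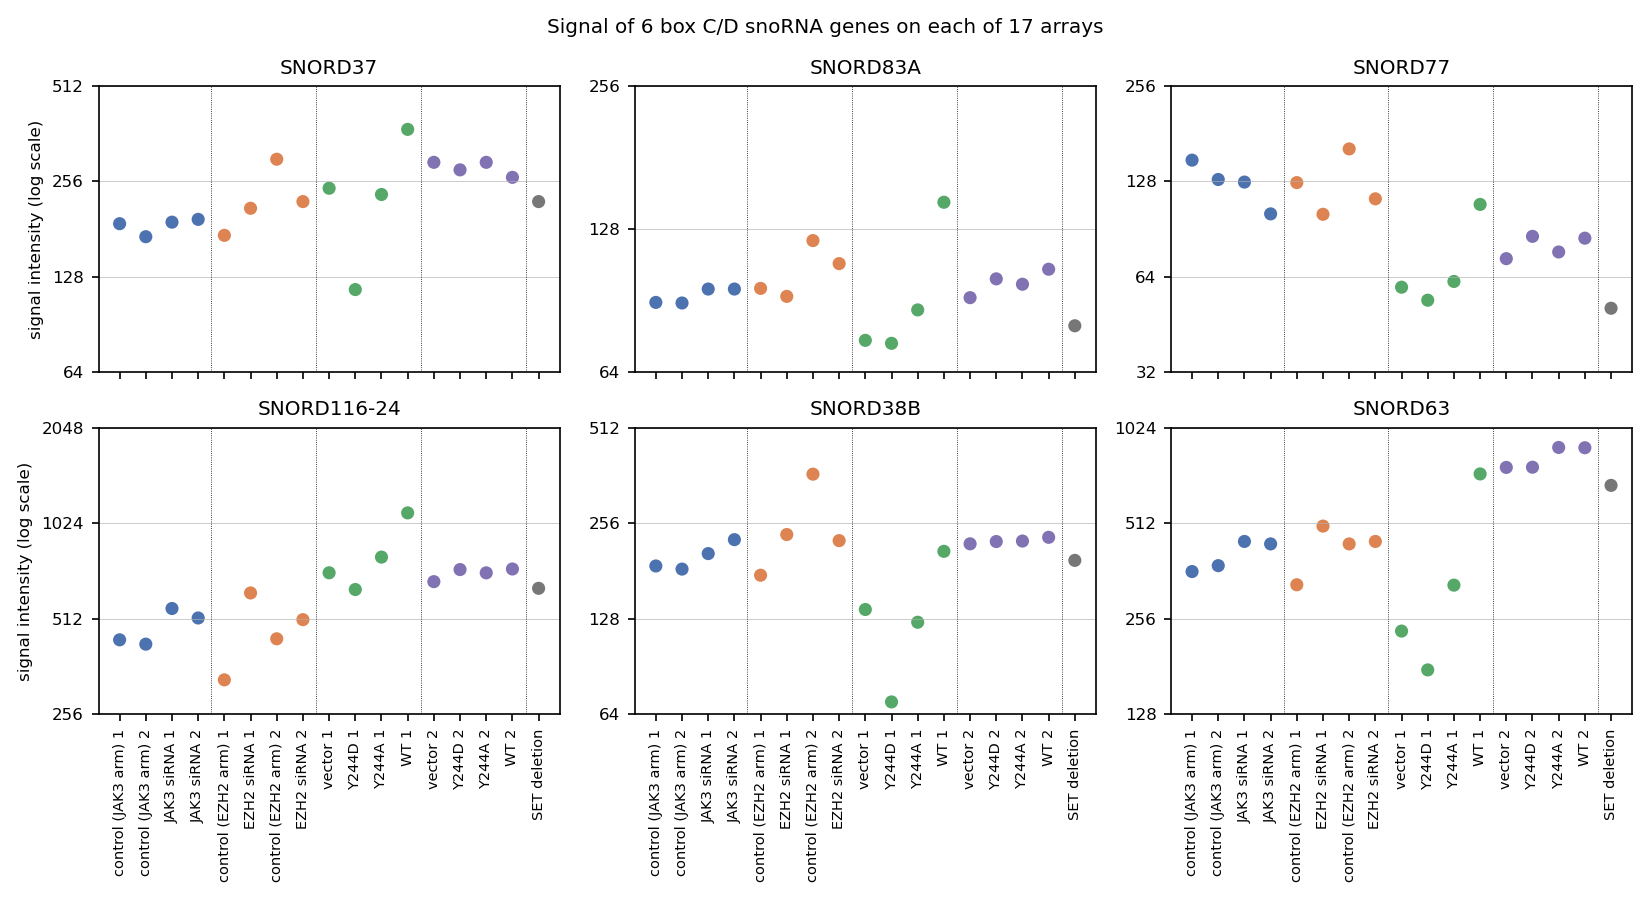
Signal intensity (log scale) of SNORD37, SNORD83A, SNORD77, SNORD116-24, SNORD38B and SNORD63 on each of the 17 arrays, 1 point per array, with colours for the JAK3 arm, the EZH2 arm, plasmid set 1, plasmid set 2 and the SET deletion array. SNORD77 lay below its controls with both siRNAs, SNORD38B was highest on the second EZH2 control (365.8), and the set 1 plasmid arrays spread widely (SNORD63, 176.2 to 732.8) while those of set 2 lay close together (768.4 to 888.4).

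After JAK3 siRNA most of these snoRNAs read slightly above control, and none passed the test. Of 73 tested, 60 lay above 0, with a median log2 difference of 0.11, where the share of all 14466 genes above 0 was 45.7% and their median -0.01. Limma called 0 members after Benjamini-Hochberg adjustment, where 1.38% of all genes were called (90 higher and 110 lower). At an unadjusted p under 0.05 there were 19 members or 26.0%, against 12.4% of all genes. Of these, 15 were higher, where 5.39% of all genes were, and 4 lower, against 7.02%. With array weights limma called 7 members higher, where 2.24% of all genes were, and 1 lower, against 2.59%. A fit of the JAK3 arm alone called 7, all higher, against 1.84% of all genes.

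By number the sets of values were alike. JAK3 siRNA minus control gave a median of 0.11 for number 1, with 64 of 73 above 0 (44.4% of all genes), and 0.09 for number 2, with 55 above 0 (47.9% of all genes). Both differences lay above 0 in 50 members, or 68.5%, where 28.5% of all genes did. Both lay below 0 in SNORD45C, SNORD50B, SNORD75 and SNORD77, or 5.48% against 35.8%. The JAK3 siRNA arrays lay wholly above both controls in 46 members, or 63%, against 21.2% of all genes, and wholly below in the same 4, against 27.1%. H/ACA snoRNAs, the class that guides pseudouridylation, also read higher: the median over 61 H/ACA snoRNA genes, relative to the array's median, was 1.435 and 1.368 on the JAK3 siRNA arrays and 1.152 and 1.214 on the controls. The median over 63 ribosomal protein mRNAs was 4.998 and 4.981 against 5.023 and 4.983. The part of the arrays' short RNA signal in the members' values was not tested.

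**Figure D2:**
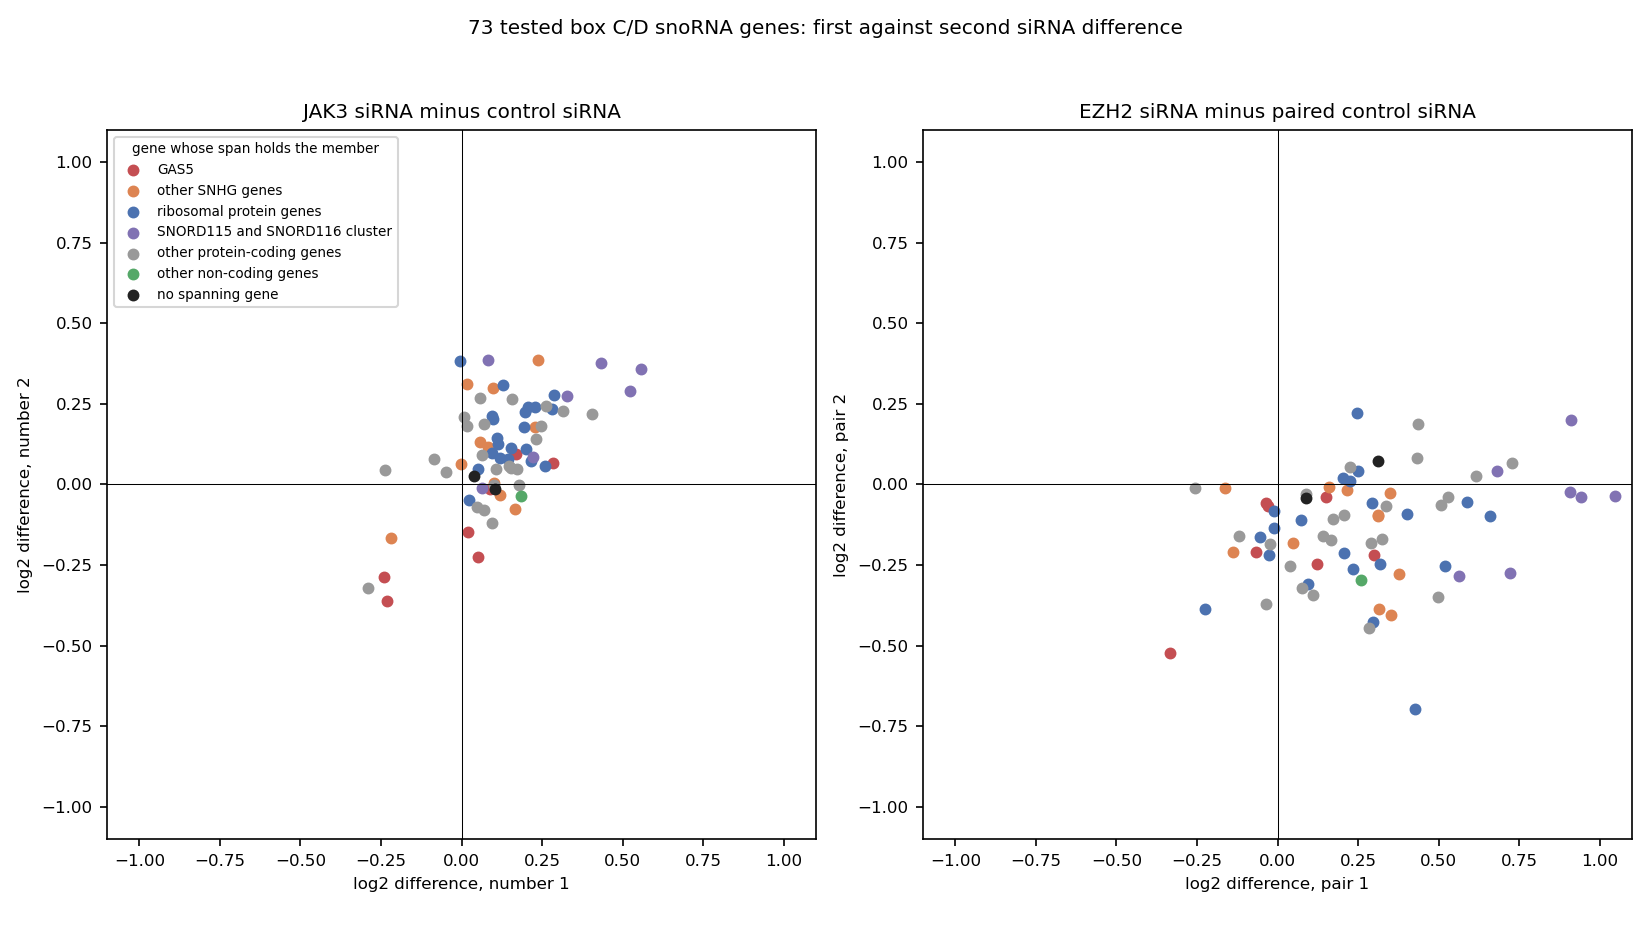
Log2 difference of number or pair 2 against number or pair 1 for the 73 tested snoRNA genes (1 point each), for JAK3 siRNA (left) and EZH2 siRNA (right), coloured by the gene that spans them. In the JAK3 arm 50 points lie in the upper right, and in the EZH2 arm 58 lie right of 0 but 61 lie below 0.

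Among ribosomal protein genes 20 of 21 spanned members lay above 0 with JAK3 siRNA, with a median of 0.15. SNORD95, within RACK1, the gene of a ribosome-bound scaffold protein, read 4622 and 4914 against 3855 and 4152, a difference of 0.25 (SE 0.078, adjusted p = 0.169, limma). Each JAK3 siRNA array lay above each control. Other protein-coding genes spanned 24 tested members, of which 17 lay above 0 (median 0.10). SNORD8, within the chromatin remodeller gene CHD8, read 426.0 and 392.9 against 321.5 and 337.9, a difference of 0.31 (SE 0.089, adjusted p = 0.141, limma), the smallest adjusted p of the members here. SNORD41, within the nuclear import receptor gene TNPO2, read 2149 and 2177 against 1927 and 1812, a difference of 0.21. SNORD55 read 1808 and 1953 against 1482 and 1611, a difference of 0.28 (SE 0.082, adjusted p = 0.144, limma), with each JAK3 siRNA array above each control.

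SNHG genes other than GAS5 spanned 11 tested members, and 10 lay above 0 (median 0.09). SNORD52, within SNHG32, read 335.0 and 316.9 against 284.0 and 242.7, a difference of 0.31 (SE 0.103, adjusted p = 0.207, limma). SNORD50B, within SNHG5, read 289.2 and 281.5 against 336.8 and 315.8, a difference of -0.19, and was the 1 member of this group below 0. Its neighbour SNORD50A, in the same gene, read 2000 and 1884 against 1841 and 1926, and its groups overlapped.

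The GAS5 members were divided. Of 7, 3 lay above 0, with a median of -0.06. SNORD75 read 282.2 and 249.8 against 333.4 and 304.6, a difference of -0.26 (SE 0.084, adjusted p = 0.189, limma), and SNORD77 differed by -0.30 (SE 0.108, adjusted p = 0.262, limma). SNORD44, from the same transcript, read 2922 and 2797 against 2402 and 2669. SNORD45C, within RABGGTB, a gene of a prenyltransferase subunit, read 226.2 and 202.2 against 276.6 and 252.4, a difference of -0.31 (SE 0.091, adjusted p = 0.156, limma). The other 2 members of that gene lay near 0, SNORD45A at -0.01 and SNORD45B at -0.005. SNORD51, within EEF1B2, read 100.9 and 113.6 against 119.0 and 110.2, which overlap. Members of a single gene thus took different values in GAS5, SNHG5 and RABGGTB, though differences between neighbours were not tested.

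All 7 tested SNORD116 copies lay above 0 with JAK3 siRNA, with a median of 0.30. SNORD116-14 read 565.8 and 479.2 against 384.8 and 373.5, a difference of 0.46 (SE 0.176, adjusted p = 0.298, limma). SNORD116-15 read 1279 and 1265 against 947.8 and 974.9, and SNORD116-20 read 644.7 and 617.6 against 448.7 and 505.5. The JAK3 siRNA arrays lay above both controls in each of these 3. SNORD116-6, with signals of 35.6 to 38.8 in this arm, lay at 0.03, and its groups overlapped.

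Of the spanning genes 24 were tested themselves, and 22 of these held 31 tested members. The other tested members, those of GAS5 among them, have no value for their spanning gene. With JAK3 siRNA 18 of these 22 genes lay below 0, with a median of -0.06, and the member's difference exceeded that of its spanning gene in 29 of 31. SNORD41 at 0.21 stood beside TNPO2 at -0.10, SNORD8 at 0.31 beside CHD8 at 0.03, and SNORD37 at 0.10 beside EEF2 at -0.03. The exceptions were SNORD45C at -0.31 beside RABGGTB at -0.23, and SNORD51 at -0.10 beside EEF1B2 at -0.01. With EZH2 siRNA 18 of the 22 spanning genes also lay below 0 (median -0.07), and the member's difference exceeded that of its spanning gene in 20 of 31, which was 26 in pair 1 and 5 in pair 2. None of the 24 tested spanning genes was called in any of the 4 comparisons.

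**Figure D3:**
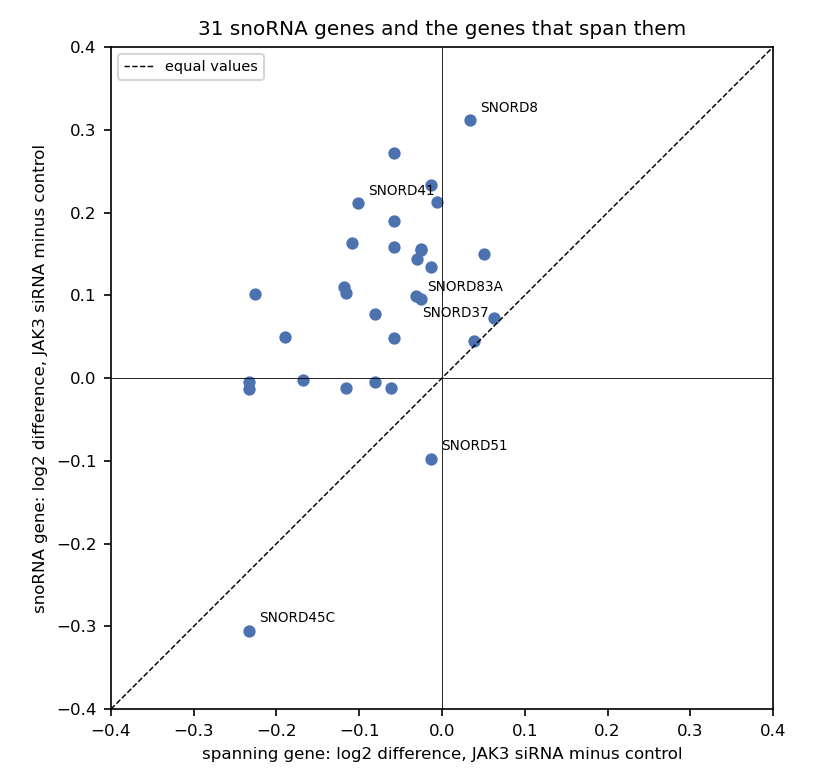
Log2 difference with JAK3 siRNA of 31 snoRNA genes (vertical) against the gene that spans each (horizontal), with the dashed line at equal values. In 29 of 31 the snoRNA gene lies above the line.

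With EZH2 siRNA the pairs gave opposite pictures. In pair 1, 58 of 73 members lay above their control, with a median of 0.25, where 41.5% of all genes did. There 14 members lay at least 0.5 above control and 0 as far below, against 2.96% of all genes either way. In pair 2, 61 lay below their control, with a median of -0.11, where 53.3% of all genes lay above 0. Averaged over the pairs, 41 of 73 lay above 0 (median 0.04; all genes 48.2%, median -0.004), and limma called 0 members, where 0.94% of all genes were called. At an unadjusted p under 0.05 there were 17 members, or 23.3% against 15.6%, with 13 higher (5.47% of all genes) and 4 lower (10.1%). Limma with trend and robust fitting called 1, SNORD41, as higher, where 0.518% of all genes were. A fit of the EZH2 arm alone called 5 higher, against 0.837% of all genes, and 1 lower, against 0.664%. Without the control or the siRNA array of pair 2, pair 1 alone gave 26 calls, all higher, where 4.46% of all genes were; that lone pair is assumed to vary like the JAK3 arm. Without either array of pair 1, pair 2 alone gave 0 calls, where 0% of all genes were called, and a median of -0.11.

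The controls of the pairs lay further apart than the siRNA arrays. Control 2 read above control 1 in 72 of 73 members, with a median of 0.33, where 43.1% of all genes did. EZH2 siRNA array 2 read above array 1 in 29 of 73, with a median of -0.08. The median over H/ACA snoRNA genes, relative to the array's median, was 1.31 in control 1 and 1.54 in control 2, and 1.38 and 1.34 on the EZH2 siRNA arrays. In the JAK3 arm, control 2 read above control 1 in 34 of 73 members, with a median of -0.003. The part of the EZH2 control arrays in the pairs' values was not tested beyond the values with each array left out.

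Both pairs lay above 0 in 12 members, or 16.4%, where 23.5% of all genes did, and both below in 15, or 20.5%, where 28.3% did. Among the 12 was SNORD116-24, which read 616.7 against 327.8 in pair 1 and 507.9 against 441.9 in pair 2, a difference of 0.56 (SE 0.125, adjusted p = 0.056, limma). SNORD41 read 2282 against 1688 and 2124 against 1864, a difference of 0.31 (SE 0.079, adjusted p = 0.084, limma). SNORD32A, 1 of the 4 members within RPL13A, read 4617 against 3894 and 4130 against 3541, a difference of 0.23 (SE 0.069, adjusted p = 0.123, limma). In all 3, both siRNA arrays lay above both controls.

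SNORD61, within RBMX, the gene of an RNA-binding protein, read 1163 against 702.3 and 893.8 against 853.6, so that nearly all of its difference of 0.40 (SE 0.119, adjusted p = 0.127, limma) came from pair 1. The SNORD116 copies took the same form, with a median over 7 of 0.91 in pair 1 and -0.04 in pair 2. SNORD116-14 read 616.4 against 298.0 and then 480.1 against 491.9, and SNORD116-15 read 1512 against 787.4 and then 1135 against 1165. SNORD116-29 read 62.7 against 39.1 and 54.9 against 53.3, a difference of 0.36.

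Members with both pairs below 0 included SNORD77, whose difference was -0.43 (SE 0.108, adjusted p = 0.082, limma). SNORD4A, within RPL23A, read 103.2 against 120.5 and 105.6 against 138.0, a difference of -0.30 (SE 0.091, adjusted p = 0.128, limma). SNORD50B read 242.7 against 267.1 and 333.8 against 385.9, a difference of -0.17, and its groups overlapped. SNORD13P2, a copy of U13 within FOXK1, read 44.4 against 45.6 and 37.2 against 48.2, near the floor of 36.66. SNORD14E, a U14 gene within HSPA8, read 151.1 against 164.3 and 169.0 against 188.6. The 4 members that were lower at an unadjusted p under 0.05 were SNORD77, SNORD4A, SNORD50B and SNORD13P2. In GAS5 the 7 members had a median of -0.03 in pair 1 and -0.21 in pair 2, where 0 lay above 0.

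The 5 widest spreads over the siRNA arrays each ran between arrays of the EZH2 arm, and in SNORD38B and SNORD45B between its controls. SNORD38B read 175.4 in control 1 and 365.8 in control 2, with 235.8 and 225.6 on the EZH2 siRNA arrays and 183.4 to 227.2 in the JAK3 arm. SNORD45B read 565.9 and 1068 in the controls and 798.5 and 838.2 with EZH2 siRNA. Of the processing snoRNAs, SNORD13, which guides acetylation of 18S ribosomal RNA, stayed between 9229 and 10520 on all 8 siRNA arrays. SNORD14C, a second U14 gene within HSPA8, read 1818 and 3022 in the EZH2 controls against 1960 and 2381 with the siRNA.

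**Figure D4:**
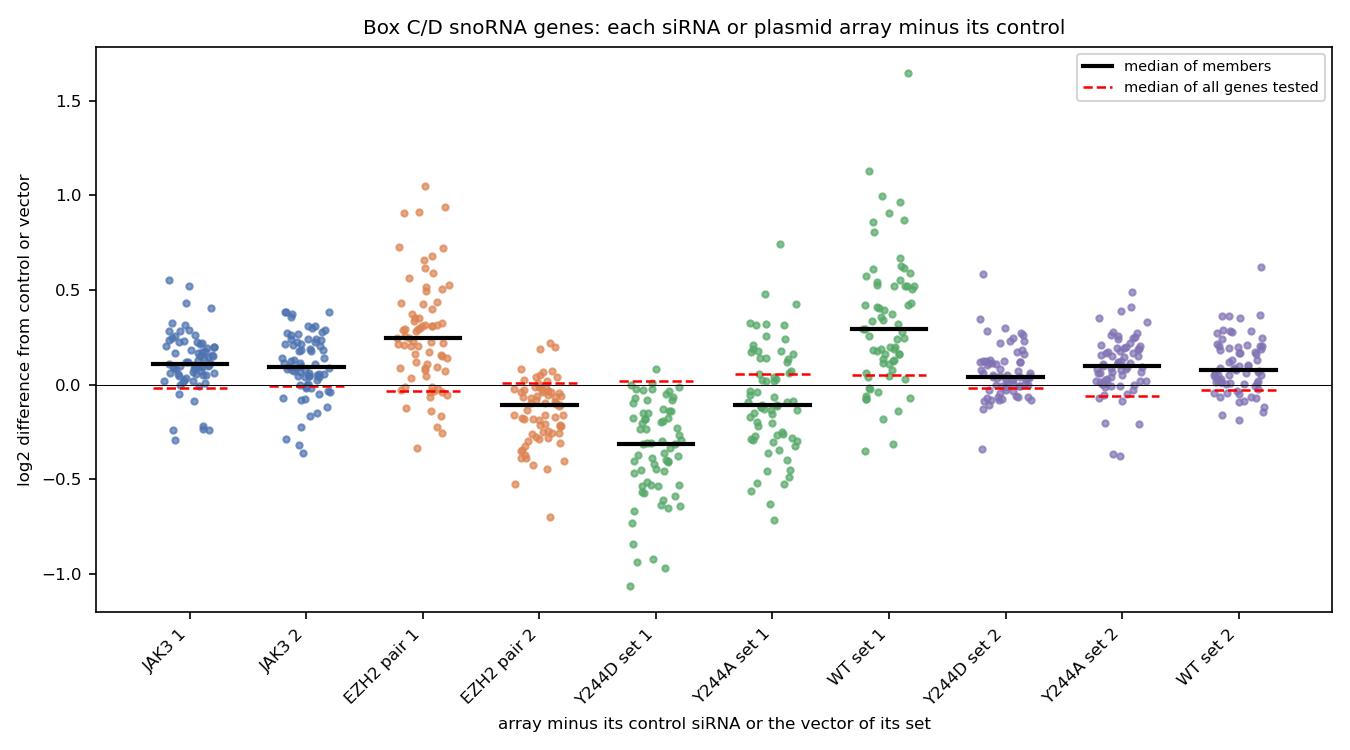
Log2 difference of each siRNA array from its control and of each plasmid array from the vector of its set, 1 point per snoRNA gene (73 tested on siRNA arrays, 69 on plasmid arrays), with the median of the members (black) and of all genes tested (red, dashed). Medians were 0.11 and 0.09 for JAK3, 0.25 and -0.11 for the EZH2 pairs, -0.31, -0.11 and 0.29 in plasmid set 1, and 0.04, 0.10 and 0.08 in set 2.

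The effects of the 2 siRNAs, which share no array, were compared directly. Limma called 0 of 73 members, where 0.366% of all genes were called, and 4 had an unadjusted p under 0.05, or 5.48% against 8.14%. JAK3 minus EZH2 was 0.49 for SNORD4A (SE 0.129, adjusted p = 0.182, limma), 0.33 for SNORD21 within RPL5 and 0.34 for SNORD15A within RPS3. It was 0.20 both for SNORD83A and for SNORD43, which lie within RPL3. SNORD21 read 441.1 and 407.1 with JAK3 siRNA against 384.4 and 348.0, and with EZH2 siRNA 416.9 against 424.6 and 486.7 against 566.0. SNORD15A read 436.6 and 436.4 against 372.9 and 369.6, and 414.0 against 387.4 and 502.0 against 622.1. SNORD43 read 306.7 and 305.3 against 287.1 and 263.2, and 343.4 against 346.0 and 337.0 against 356.6. The difference was -0.30 for SNORD45C, -0.27 for SNORD61, -0.25 for SNORD116-24, -0.23 for SNORD45A and -0.15 for SNORD32B. SNORD77 differed between the effects by 0.13, with a 95% interval of -0.20 to 0.47, and SNORD37 by 0.18, with an interval of -0.21 to 0.57. Without either array of EZH2 pair 1 the comparison called 3 members, all with JAK3 higher, where 0.276% of all genes were. Without either array of pair 2 it called 6, all with JAK3 lower, against 1.4% of all genes.

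Full-length EZH2 plasmids gave no common direction. Limma called 0 of 69 members over the 6 arrays against 2 vectors, where 0% of all 14410 genes were called, and no member had an unadjusted p under 0.05, where 0.0694% of genes did. That fit held no term for the set, so that the spread between the sets entered its SE (median 0.23 over the members). Its lack of calls therefore says little. Fits of set 1 and of set 2 alone called 0 members and 0% of all genes, but each holds 1 vector array, so that these counts say little. The median was 0.03 (all genes 0.01), and 39 of 69 lay above 0, or 56.5% against 53.6%. No member lay above the vector of its set on all 6 arrays, and none lay below it on all 6, where 1.53% and 2.53% of all genes did.

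In set 1 the arrays went apart. The Y244D array lay below its vector in 66 of 69 members (median -0.31), the Y244A array in 42 (median -0.11), and the WT array lay above it in 58 (median 0.29), where 53.8%, 54% and 55.6% of all genes lay above 0. SNORD37 read 243.4 with vector, 116.5 with Y244D, 232.6 with Y244A and 373.5 with WT. SNORD63, within the mitochondrial chaperone gene HSPA9, read 233.7, 176.2, 326.4 and 732.8 in that order, and SNORD102, within RPL21, read 55.54, 35.01, 74.69 and 97.22. SNORD38B read 136.7, 69.8, 124.6 and 208.7. In these 4 genes Y244D was the lowest array of the set and WT the highest. With 1 array of each plasmid in the set, these are values with no test, and H/ACA snoRNA genes also had Y244D lowest and WT highest, with medians relative to the array's median of 1.16, 0.74, 0.99 and 1.46 in that order of arrays.

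GAS5 members lay above the vector on the WT array of set 1 in 7 of 7 (median 0.34). SNORD79 read 338.6 with vector, 322.9 with Y244D, 567.3 with Y244A and 676.4 with WT. SNORD14C went another way, with 3839 on the vector array and 2554, 2671 and 3091 on the others. SNORD38A read 313.0 with vector and 165.4, 191.1 and 245.2 with EZH2, so that all 3 lay below it. SNORD52 likewise read 575.3 with vector and 386.6 to 546.2 with EZH2, and SNORD96A, within RACK1, 123.6 with vector and 79.3 to 112.5 with EZH2. SNORD30, within SNHG1, read 1960 with vector and 1359 to 2005 with EZH2.

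In set 2 the differences were small. The array titled Y244D lay above its vector in 48 of 69 members (median 0.04), Y244A in 57 (median 0.10) and WT in 54 (median 0.08), where 42%, 44.9% and 39.9% of all genes did. Of the members, 41 of 69 lay above the vector on all 3, or 59.4% against 17.9% of all genes. These 3 differences share their vector array. H/ACA snoRNA genes also read higher, with medians relative to the array's median of 1.74 with vector and 1.89, 1.90 and 1.79 with EZH2. SNORD28, within SNHG1, read 5045 with vector and 5650, 6060 and 5963 with EZH2. SNORD58A, within RPL17, read 1837 with vector and 2202, 2195 and 2364, and SNORD42A, within RPL23A, read 1499 with vector and 1636, 1616 and 1937. SNORD77 read 72.9 with vector and 76.6 to 85.8. SNORD37 read 293.9 with vector and 263.5 to 293.9 with EZH2, and SNORD63 768.4 with vector and 769.5 to 888.4. The array with the SET-deleted EZH2 lay above vector 1 in 38 of 69 members (median 0.07; 45.9% of all genes) and above vector 2 in 31 (median -0.04; 42%).

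The sets themselves stood apart. Vector 2 minus vector 1 was at least 0.5 in 17 of 69 members and at most -0.5 in 9, together 37.7%, where 52.9% of all genes lay at least 0.5 apart. All set 2 arrays lay above all set 1 arrays in 19 members, or 27.5% against 16.3% of all genes, and below them in 6, or 8.7% against 14.9%. SNORD63 read 176.2 to 732.8 in set 1 and 768.4 to 888.4 in set 2, and SNORD79 322.9 to 676.4 and 1017 to 1230. SNORD116-14 read 745.3 to 1310 in set 1 and 716.5 to 738.2 in set 2. What separated the sets is not stated in the labels and was not tested.

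Between the 9 plasmid and 8 siRNA arrays, groups did not overlap in 23 of 69 members with plasmid arrays higher, or 33.3% against 10% of all genes. SNORD41 read 1688 to 2282 with siRNAs and 3132 to 4063 with plasmids, and SNORD55 1482 to 1953 and 2545 to 3385. SNORD4A, SNORD4B and SNORD51 lay lower on every plasmid array, or 4.35% against 20.6%. SNORD51 read 100.9 to 151.6 with siRNAs and 57.1 to 90.6 with plasmids. The kind of nucleic acid transfected and the series of arrays cannot be told apart.

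**Figure D5:**
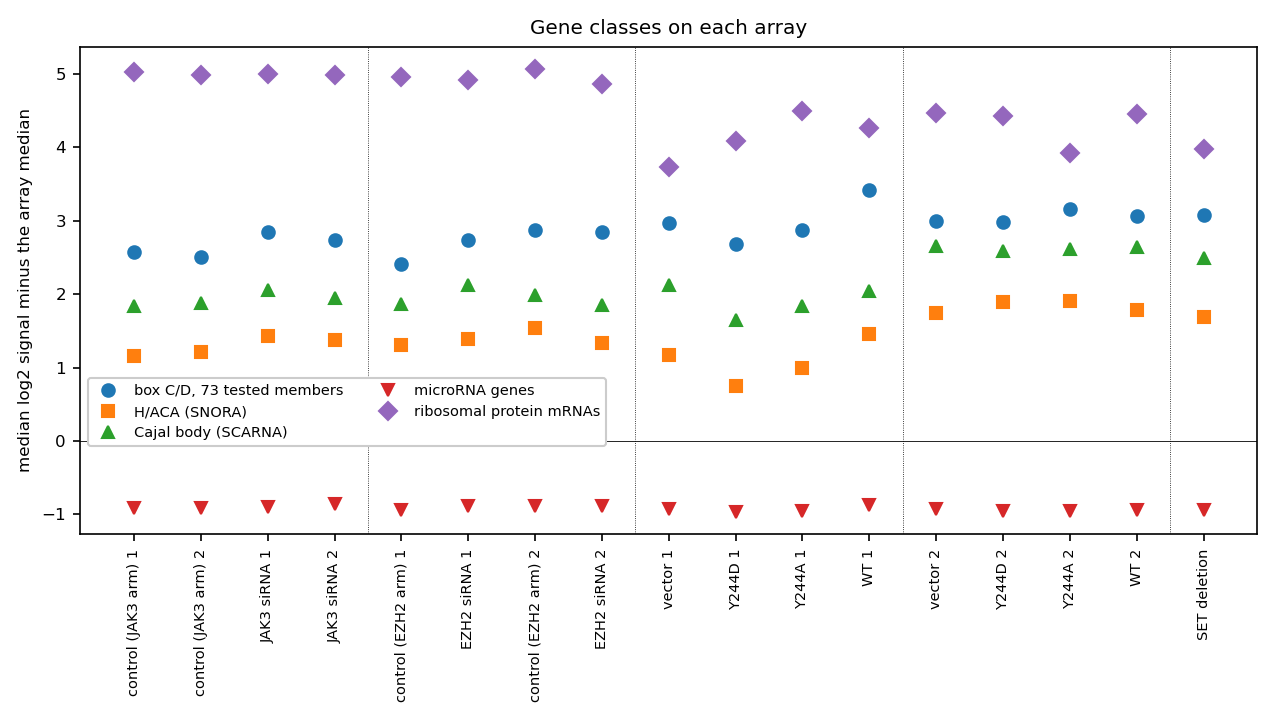
Median log2 signal of each gene class minus the median of the array, on each of the 17 arrays, for the 73 box C/D members tested on siRNA arrays, 61 H/ACA, 16 Cajal body, 179 microRNA and 63 ribosomal protein genes. Only the box C/D series is limited to genes past the filter on low signal, so that heights cannot be compared between classes. On JAK3 siRNA array 1 the tested members read 2.84, all box C/D members 0.89 and H/ACA genes 1.435. Among siRNA arrays box C/D members ranged from 2.41 (EZH2 control 1) to 2.87 (EZH2 control 2), and from 2.69 (Y244D) to 3.42 (WT) in plasmid set 1.

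Protein partners of these RNAs and factors of related steps were read beside them. Of the core proteins of the box C/D particle, NOP56 and SNU13 had no probe set with a single symbol, so that this list holds only FBL and NOP58. FBL, the methyltransferase fibrillarin, differed by -0.13 with JAK3 siRNA and -0.32 with EZH2 siRNA, and NOP58, a scaffold protein of the particle, by -0.21 and -0.17. Neither was called (adjusted p = 0.649 and 0.261 for JAK3, 0.133 and 0.285 for EZH2, limma). A list of 20 assembly and maturation factors is not limited to the box C/D particle, since it also holds NAF1, SHQ1 and AAR2. Of these 20 factors, 18 lay below 0 with JAK3 siRNA (median -0.14) and 20 with EZH2 siRNA (median -0.18), and 0 were called. All 22 pre-ribosomal RNA processome and RNA polymerase I factors lay below 0 with either siRNA (medians -0.17 and -0.25), again with 0 called, where 45.7% and 48.2% of all genes lay above 0. Of them 11 and 16 were lower at an unadjusted p under 0.05, where 7.02% and 10.1% of all genes were. The 4 H/ACA core proteins had medians of -0.09 and -0.16, with 0 called. With full-length EZH2 plasmids the medians of the 4 lists were 0.11, 0.13, 0.11 and 0.19, in the order given, and 0 were called. These lists were chosen with results of these data known, and their counts are descriptions.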

How the data were processed

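Each value comes from a table of linear signal intensity for 28869 probe sets on 17 arrays, as deposited by the authors. Per the labels' protocols, RNA was extracted with TRIzol and a column, and biotin labelled with Nugen kits from 100 ng. Their background correction and normalization are not given in the sources used here. Intensities were taken to log2 unchanged. Arrays hold no read depth, and their number limits the precision.

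Names came from the platform annotation, keeping the 19310 probe sets with 1 symbol and, for each gene, the one with the highest mean. Every member matched a RefSeq gene (GRCh38.p14). No strand is given there, so that a spanning gene need not be a host on the same strand as planned. The spanning gene of some members is not reported here.

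Tests used limma 3.58.1 (R 4.3.3, data.table version 1.17.8) with lmFit and eBayes, two-sided, Benjamini-Hochberg adjusted over all genes tested, threshold 0.05. The 8 siRNA arrays shared a fit with 3 residual degrees of freedom. The EZH2 arm carried the pair as a block, since the titles pair control and siRNA arrays; deviations of paired arrays correlated with r = -0.086 across genes. The plasmid fit used 8 arrays (6 residual degrees of freedom) and held no term for the set. Scripts were tested on simulated data. Equal signals on 2 or more siRNA arrays occurred in 3 of 73 members (4.11%; 7.31% of all genes).

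The members and lists were chosen with earlier results of these data known. Named members are SNORD37, SNORD83A and SNORD77, the 5 with the smallest unadjusted p in each direction of each comparison, the 5 widest ranges on the siRNA and on the plasmid arrays, and SNORD13 and the SNORD14 genes; neighbours and SNORD116 copies, SNORD44 and SNORD50A among them, were added after their values were seen. Alternatives were array weights, trend and robust fitting, quantile normalization, centring, other filters, the mean of probe sets, blocks, separate fits and each array left out.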

Additional observations from a re-analysis of the deposited data

Results flagged for a closer look

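Members whose arrays lay on opposite sides of control with the 2 siRNAs numbered 5 of 73 with JAK3 higher and EZH2 lower, and 0 of 73 the other way. Of the 73, 50 lay above 0 in both JAK3 differences and 15 below 0 in both EZH2 pairs. The share of all genes with either pattern was not counted, so that these counts set nothing apart in the members. For 3 of the 5 members the effects are given here. SNORD21 lay at 0.20 and 0.23 with JAK3 siRNA and at -0.03 and -0.22 with EZH2 siRNA, so that the effects differed by 0.33 (adjusted p = 0.403, limma). SNORD43 lay at 0.10 and 0.21 against -0.01 and -0.08, a difference of 0.20 (adjusted p = 0.665, limma). SNORD83A lay at 0.09 and 0.10 against -0.06 and -0.16, also a difference of 0.20 (adjusted p = 0.646, limma). None of these passed the test of the difference.

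On the plasmid arrays SNORD14C lay below its vector on all 3 EZH2 arrays of set 1 (-0.59, -0.52 and -0.31) and above it on all 3 of set 2 (0.06, 0.17 and 0.17). The mean of set 1 minus that of set 2 was -0.61, a difference that was not tested. In all, 6 of 69 members had this pattern and 0 had the opposite one. Of the 69, 11 lay below the vector on all 3 arrays of set 1, and 41 above it on all 3 of set 2. The share of all genes with either pattern was not counted, so that these counts set nothing apart in the members.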

How the results depend on the processing

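Each group has at most 2 arrays apart from the pooled plasmids, so that small differences could not be resolved; the members' median SE was 0.09 for each siRNA and 0.23 for the plasmids. The count of members called was 0 in each comparison and stayed 0 under quantile normalization, centring and other filters. It also stayed 0 with the mean of probe sets, which leaves the members' own values as they are, since each has 1 probe set. It was 8 for JAK3 with array weights (7 higher and 1 lower, against 2.24% and 2.59% of all genes) and 7, all higher, in a fit of that arm alone (1.84%). It was 1 for EZH2 with trend and robust fitting, higher (0.518%), and 6 in a fit of that arm alone (5 higher and 1 lower, against 0.837% and 0.664%). The fits that take the replicate number as a block in the JAK3 arm, or the set as a block on the plasmid arrays, and the fit with no block in the EZH2 arm also called 0 members; same-numbered JAK3 arrays deviated together with r = 0.15, over 2 pairs only. With each array left out in turn, the calls spanned 0 to 0 for JAK3, 0 to 26 for EZH2 (26 higher, against 4.46% of all genes), 0 to 6 for their difference (6 lower, against 1.4%) and 0 to 0 for the plasmids.

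The JAK3 median was 0.058 with no filter on low signal, which adds the 42 dim members, and 0.10 to 0.12 with an array left out. Medians with an array left out spanned -0.11 to 0.25 for EZH2, -0.12 to 0.24 for the difference and -0.03 to 0.09 for the plasmids; set 1 alone gave -0.02 and set 2 alone 0.07, fits added after seeing that the sets stand apart. Over all members tested, leaving out an array turned the sign of 14 of 73 for JAK3, 46 of 73 for EZH2, 51 of 73 for the difference and 50 of 69 for the plasmids, and another alternative, the fits of a single set apart, that of 5, 6, 7 and 11, each within 0.0618 of 0 in the reported fit. Among SNORD37, SNORD83A, SNORD77 and the members with the 5 smallest p each way in the comparison given, leaving out an array turned the sign of SNORD37 with EZH2 siRNA (-0.44 to 0.28), of the JAK3 minus EZH2 difference of SNORD37 (-0.18 to 0.54), SNORD77 (-0.034 to 0.30), SNORD61 (-0.60 to 0.063), SNORD116-24 (-0.61 to 0.10) and SNORD45A (-0.52 to 0.050), and, on the plasmid arrays, of SNORD37 (-0.26 to 0.091) and SNORD52 (-0.49 to 0.13). None of these values turned under those other alternatives. The cause of these changes was not tested.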
